A study of Homo sapiens with 6 samples.

Results

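KRT81, KRTAP2-3, KRT7, KRT8 and KRT18 were described in LX-2 cells, an established human hepatic stellate cell line, after TGF-β1 with or without ALB (albiflorin, a monoterpene glycoside of peony root; not the albumin gene). The 5 genes were taken by name from a deposited table of 937 genes that the authors had called as changed between these groups, so the values below are those that chose the genes and are given as a description. Calls from the fit over the whole table are given as counts beside its background share and are no evidence about these genes. The ALB group, 3 libraries, received TGF-β1 at 20 ng/mL during 24 h, followed by 24 h with ALB. The TGF-β1 group, 3 libraries, had the same TGF-β1 without ALB, and its labels say control. The paper's methods do not say what these cells received during the ALB period, or whether both groups were harvested at the same time. No cells free of TGF-β1 entered the comparison, and the ALB dose of the sequenced cells is not given in the sources used here. The methods speak of independent experiments in general, but do not say whether the 3 libraries of a group came from separate cultures, so the spread given here is that between libraries and may be technical. Depth was estimated as 3.58e+07 to 4.16e+07 fragments per ALB library and 3.38e+07 to 3.82e+07 per TGF-β1 library, and the dispersion over the table gave a biological coefficient of variation of 0.302 in the ALB group and 0.206 in the TGF-β1 group.

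Keratins are the intermediate filament proteins of epithelia. A filament needs a type I and a type II keratin as partners. KRT8 (type II) and KRT18 (type I) are the pair of simple epithelia, hepatocytes included, and KRT7 (type II) is found in ducts such as the bile duct. KRT81 is a type II keratin of the hair shaft, and KRTAP2-3 is one of the cysteine-rich keratin-associated proteins that cross-link hair keratins. Stellate cells are mesenchymal cells, whose usual filament proteins are vimentin and desmin.

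KRT81, KRT7 and KRT8 are type II genes in the keratin cluster of chromosome 12, where the type I gene KRT18 lies beside KRT8, and KRTAP2-3 is in the cluster of chromosome 17 (GRCh38, GENCODE 29). KRT81 (ENSG00000205426.10) runs from 52285913 to 52291534 on the minus strand, inside the span of KRT86, the gene of another hair keratin, which runs from 52249300 to 52309163 on the plus strand. KRT7 runs from 52232520 to 52252186, plus strand. KRT8 (52897187 to 52949954, minus strand) and KRT18 (52948871 to 52952901, plus strand) overlap at their ends, and 525 of the 3218 exonic bases of KRT18 are also exonic in KRT8, on the other strand. Whether counting used the strand is not given in the sources used here, so reads of these 525 bases may have gone to either gene. KRTAP2-3 runs from 41059240 to 41060114 on chromosome 17, minus strand.

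KRT86 is the closest of these genes to KRT81 in sequence. Over 486 stretches of 60 bases along the KRT81 coding sequence the median identity to the best match was 98.3% in KRT86, 64.2% in KRT8 and 63.3% in KRT7. Of the stretches of 100 bases of the KRT81 transcript, 30.3% also occur in a transcript of another gene, nearly all of them in KRT86 (29.4%). Reads that lie wholly in these stretches fit both genes, and how the authors counted them is not given in the sources used here. The stretch of KRT81 least like KRT86, near the end of its coding sequence, is shown because it tells the genes apart.
KRT81, chr12:52286327-52286386, minus strand: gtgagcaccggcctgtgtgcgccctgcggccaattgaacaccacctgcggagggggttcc
Its best match in the KRT86 coding sequence shares 29 of the 60 bases. KRTAP2-3 has closer copies still, since its 384 coding bases differ from those of KRTAP2-4 at 1 base and from those of KRTAP2-1 at 2, and 34.0% of its stretches of 100 bases occur in another gene. For KRT8 that share was 6.73%, in 4 other genes led by the pseudogene KRT8P3, and for KRT7 and KRT18 it was 0%. The shares depend on the length taken. With stretches of 50 bases they were 44.6% for KRT81, 39.7% for KRTAP2-3, 37.1% for KRT8, 31.8% for KRT18 and 0.997% for KRT7.

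KRT81 was about 20.6-fold lower with ALB. The gene was at 3.71, 3.12 and 2.79 FPKM (fragments counted per kilobase of transcript and scaled to library depth) in ALB libraries 1, 2 and 3, against 67.1, 67.1 and 64.1 FPKM in TGF-β1 libraries 1, 2 and 3. The groups were far apart, since the lowest TGF-β1 library was 17.3 times the highest ALB library. The mean was 3.20 ± 0.467 FPKM with ALB and 66.1 ± 1.77 FPKM without it (SD, n = 3 libraries each). Counts were 256, 215 and 223 with ALB and 4917, 4590 and 4153 without it. EdgeR's log2 fold change, ALB over TGF-β1, was -4.36 (standard error 0.19), the 4th lowest of the 537 genes with lower counts after ALB. In these bulk samples fewer cells of a type and less RNA per cell cannot be told apart.

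KRTAP2-3 had the lowest log2 fold change of the table, -5.79 (standard error 0.48). Its level was 0.103, 0.515 and 0.150 FPKM in ALB libraries 1, 2 and 3, against 13.6, 20.1 and 12.7 FPKM in TGF-β1 libraries 1, 2 and 3. Again the groups did not overlap, and each group had its highest value in library 2. With ALB these values rest on 4, 17 and 6 counts, so a single fragment is a large share of them, whereas the TGF-β1 libraries had 453, 622 and 374 counts. Without ALB replicate 2, the library with 17 counts, the log2 fold change was -6.67. On the log2(FPKM + 1) scale, which understates changes that reach low levels, KRTAP2-3 was at -3.70 and KRT81 at -4.00, so their order turned.

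The simple epithelial keratins moved by far less. KRT8 was at 69.4, 61.1 and 53.7 FPKM in ALB libraries 1, 2 and 3, against 115, 113 and 122 FPKM in TGF-β1 libraries 1, 2 and 3. With means of 61.4 ± 7.85 FPKM with ALB and 117 ± 5.04 FPKM without it (SD, n = 3 each), KRT8 had 52.6% of its TGF-β1 level. KRT18, its partner, was at 85.4, 72.0 and 61.0 FPKM in the ALB libraries, against 162, 162 and 157 FPKM in the TGF-β1 libraries, with means of 72.8 ± 12.2 FPKM with ALB and 160.2 ± 2.88 FPKM without it. For both genes ALB library 1 was the highest and ALB library 3 the lowest of its group, and neither gene's groups overlapped. Log2 fold changes were -0.93 for KRT8 (standard error 0.16) and -1.13 for KRT18 (standard error 0.17).

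KRT7 was the least abundant of the simple epithelial keratins. Its level was 3.63, 5.32 and 5.38 FPKM with ALB and 10.5, 9.84 and 11.7 FPKM without it, with means of 4.77 ± 0.994 FPKM with ALB and 10.7 ± 0.938 FPKM without it (SD, n = 3 each). Here ALB library 1 was the lowest of its group, the reverse of its place for KRT8 and KRT18. The counts, 119, 207 and 251 with ALB and 379, 337 and 346 without it, gave a log2 fold change of -0.97 (standard error 0.26), while the ratio of the mean FPKM gave -1.16. The length implied by count, FPKM and depth was not constant for KRT7, at 0.915 to 1.12 kb in the ALB libraries and 0.876 to 0.962 kb in the TGF-β1 libraries. For KRT81 it was 1.92 to 1.93 kb with ALB and 1.92 kb without it. KRT7 has 14 annotated transcripts and KRT81 has 2, and the part of transcript choice in the KRT7 values was not tested. Without ALB replicate 1 the log2 fold change of KRT7 was -0.74.

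**Figure D1:**
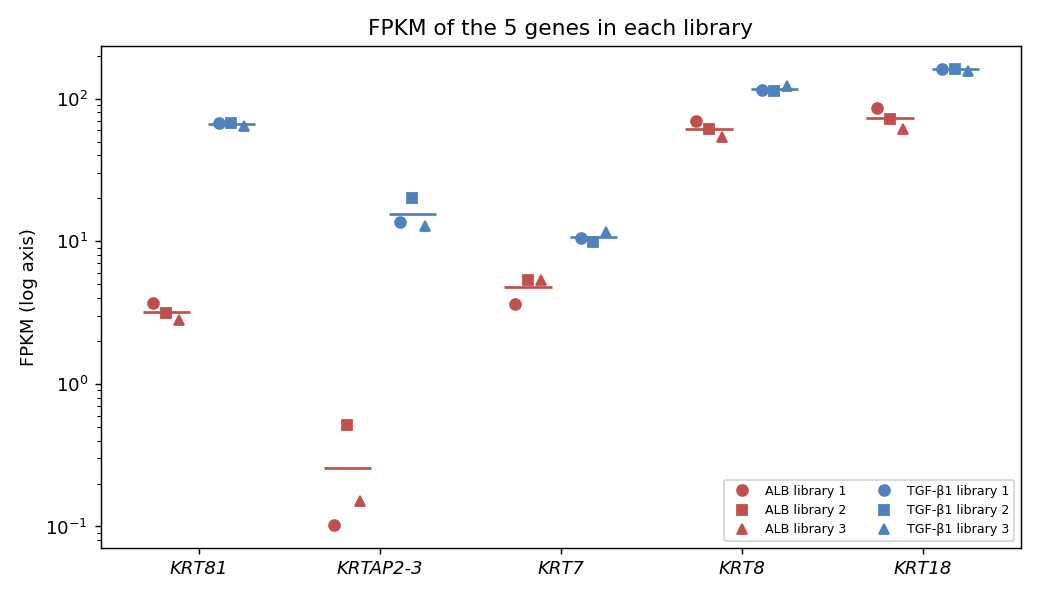
FPKM on a log axis of KRT81, KRTAP2-3, KRT7, KRT8 and KRT18 in each of the 3 ALB libraries (red, left) and the 3 TGF-β1 libraries (blue, right), with a line at each group's mean. The groups do not overlap for any of the 5 genes, and the gap is widest for KRTAP2-3 (0.103 to 0.515 FPKM with ALB, 12.7 to 20.1 FPKM without it) and KRT81.

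Each of the 5 genes passed as lower in the fit over the table (edgeR quasi-likelihood test, Benjamini-Hochberg adjustment over 937 genes, threshold 0.05). Of all the table's genes 99.4% passed, 56.9% as lower, and the groups did not overlap in FPKM, with ALB lower, for 54.9% of the genes. The table holds genes selected on these same libraries, so nothing about the 5 genes is read from these counts. Over 4-fold lower were KRT81 and KRTAP2-3, a size that 11.7% of the genes reached. Over the table, log2 fold changes had a median of -0.97. KRT7 and KRT8 stood within 0.05 of that median, by 0.0056 and 0.043, and KRT18 differed from it by -0.16, whereas KRT81 and KRTAP2-3 differed from it by -3.39 and -4.81. No gene lay between -0.88 and 1.11, so the table's median is not the level of an unchanged gene. The lower genes alone had a median of -1.39, and KRT7, KRT8 and KRT18 were lower by less than that. With TMM factors, which centre the table's own genes, KRT81, KRTAP2-3 and KRT18 passed as lower and KRT7 and KRT8 did not, while 78% of all genes passed, and 35.3% of all genes passed as lower. In order of fold change among the 537 lower genes KRT18 was 370th, KRT7 476th and KRT8 499th. KRT7 and KRT8 were thus near the edge of the selected range. At the depths used here the lower genes of the table end at a log2 fold change of -0.88. The authors selected changes over 2-fold, so these depths are not quite on the authors' scale. With depths centred on the gap in fold change, KRT8 was at -1.04 and KRT7 at -1.08.

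**Figure D2:**
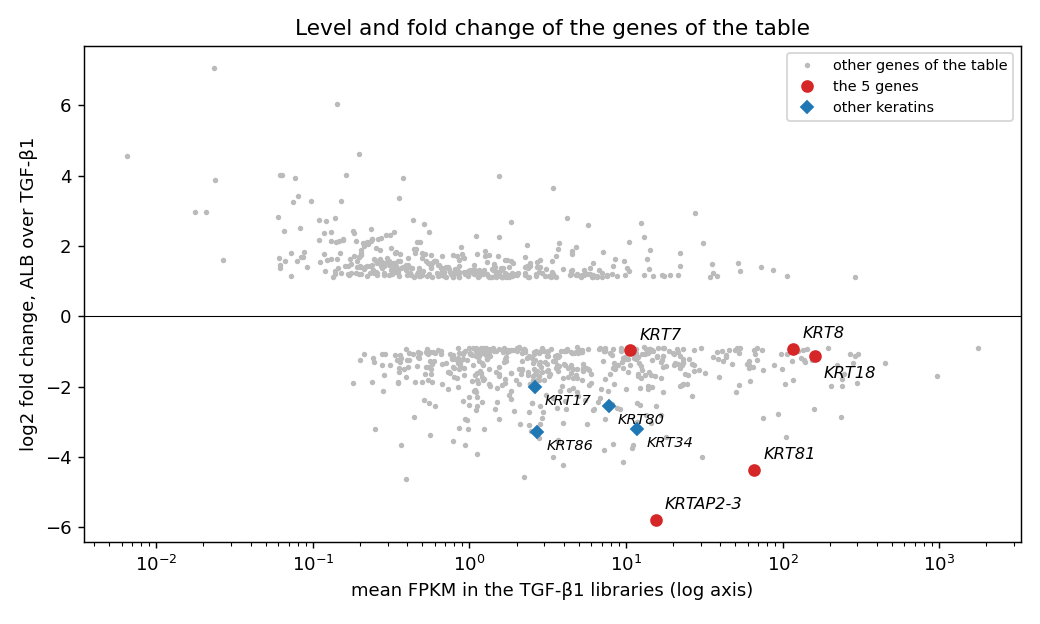
Each point is a gene of the table, with its mean FPKM in the 3 TGF-β1 libraries (log axis) across and its log2 fold change, ALB over TGF-β1, upwards; the 5 genes are red, other keratins blue, the remaining genes grey. KRT8 (-0.93) and KRT18 (-1.13) lie at the upper edge of the lower genes at over 100 FPKM, KRT81 (-4.36) and KRTAP2-3 (-5.79) near the bottom, and the empty band around 0 is the range the authors' selection left out.

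Hair and simple keratin genes thus differed in fold but did not fall into separate ranges of abundance. In the TGF-β1 libraries the order by mean FPKM was KRT18 (160.2), KRT8 (117), KRT81 (66.1), KRTAP2-3 (15.5) and KRT7 (10.7). KRT18, KRT8 and KRT81 did not overlap one another in any TGF-β1 library, nor did KRTAP2-3 and KRT7, whose nearest values were 12.7 and 11.7 FPKM. In the ALB libraries the order was KRT18 (72.8), KRT8 (61.4), KRT7 (4.77), KRT81 (3.20) and KRTAP2-3 (0.256). There KRT18 and KRT8 overlapped, and so did KRT7 and KRT81, since ALB library 1 had 3.63 FPKM of KRT7 and 3.71 of KRT81. KRT81 and KRTAP2-3 together made up 2.35%, 2.56% and 2.39% of the summed FPKM of the 5 genes in ALB libraries 1, 2 and 3, against 21.9%, 23.5% and 20.9% in TGF-β1 libraries 1, 2 and 3. The sum of all 5 was 142 ± 19.6 FPKM with ALB and 369 ± 2.16 FPKM without it (SD, n = 3 each).

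Among the 4 keratins the spread between libraries was wider with ALB, as was the median of the table. In both groups KRT81 lay within the range of the simple keratins. In the TGF-β1 libraries the coefficient of variation of counts scaled to depth was 1.68% for KRT18, 2.70% for KRT81, 3.98% for KRT7 and 4.90% for KRT8, against a median of 11.5% over 565 genes counted 50 times or more in each library. All 4 were below that median. Counting alone would give 1.11% for KRT18, 1.48% for KRT81, 5.31% for KRT7 and 1.15% for KRT8. In FPKM the figure for KRT7 was 8.77%. In the ALB libraries the figures were 16.95% for KRT18, 14.5% for KRT81, 29.8% for KRT7 and 12.1% for KRT8, with a table median of 19.1%. KRT7 had the widest spread of these 4 there, where counting alone would give 7.21%. KRTAP2-3 stood apart in both groups, with 82.6% in the ALB libraries, where counting alone would give 33.3%, and 25.8% in the TGF-β1 libraries, where it would give 4.55%.

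Ratios of 2 genes within a library do not depend on its depth. KRT81 over KRT18 was 0.0434, 0.0433 and 0.0457 in ALB libraries 1, 2 and 3, against 0.415, 0.414 and 0.408 in TGF-β1 libraries 1, 2 and 3. Within each group this ratio was nearly constant, although KRT18 itself ranged from 61.0 to 85.4 FPKM with ALB. On the log2 scale its group means differed by -3.23, with a pooled SD of 0.032 between libraries. The ratio was 0.0441 ± 0.0013 with ALB and 0.413 ± 0.0037 without it (SD, n = 3 each). That spread is below the 6.57% with ALB and 1.48% without it that counting alone would give for KRT81. Its evenness over 3 libraries is thus not read as a link between the genes. KRTAP2-3 over KRT81 was 0.0277, 0.165 and 0.0538 with ALB and 0.203, 0.299 and 0.198 without it. KRTAP2-3 was thus lower by more than KRT81 in each ALB library, but the highest ALB library came close to the lowest TGF-β1 library, and the log2 difference of -1.87 had a pooled SD of 0.95.

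The balance of the KRT8 and KRT18 pair also differed slightly between the groups. KRT8 over KRT18 was 0.813, 0.849 and 0.881 in ALB libraries 1, 2 and 3, against 0.713, 0.695 and 0.780 in TGF-β1 libraries 1, 2 and 3. The groups did not overlap, and the means of 0.847 ± 0.034 with ALB and 0.730 ± 0.045 without it (SD, n = 3 each) differed by 0.22 on the log2 scale, with a pooled SD of 0.074. The share of gene pairs in the table whose ratio separates the groups was not determined, so this separation is only a description. The part of reads from the 525 exonic bases that both genes share was not tested. KRT7 over KRT18 did not separate the groups. It was 0.0424, 0.0738 and 0.0881 with ALB and 0.0652, 0.0607 and 0.0746 without it.

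**Figure D3:**
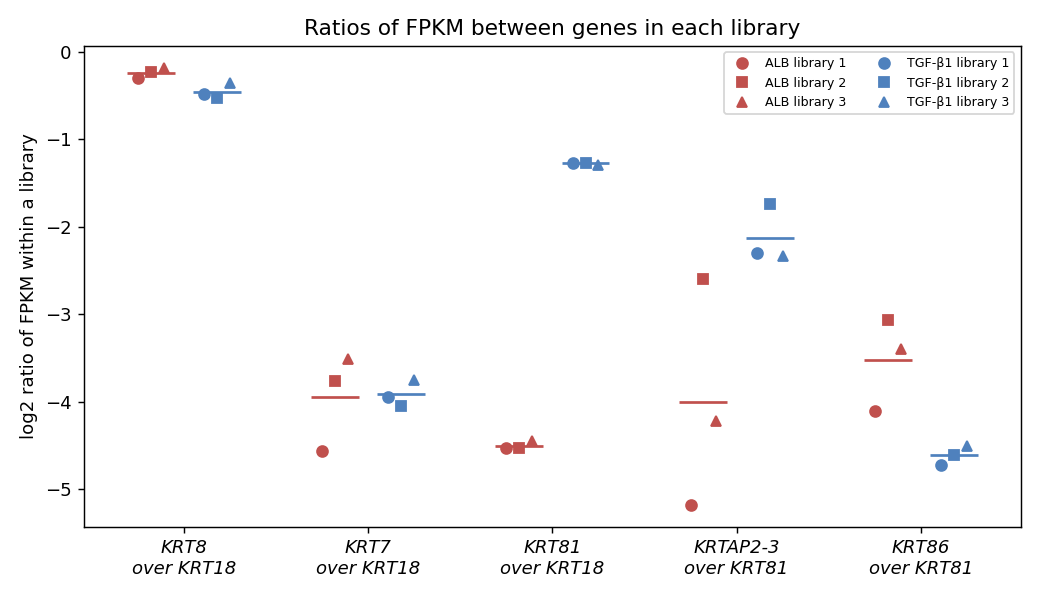
Log2 ratio of the FPKM of 2 genes within each library, for 5 pairs, with ALB libraries in red at the left, TGF-β1 libraries in blue at the right and a line at each group's mean. KRT81 over KRT18 has means of -4.50 with ALB and -1.28 without it and hardly any spread, less than counting alone would give for KRT81. KRT8 over KRT18 differs by 0.22, and KRT7 over KRT18 overlaps between the groups.

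Other keratins in the table went the same way. Of 54 keratin genes listed, 8 were in the table, all with lower counts after ALB and a median log2 fold change of -2.28, and all 8 passed as lower, as did 56.9% of the table. KRT7 and KRT8 did not pass with TMM factors, as given above. Those besides the members were KRT86, KRT34, KRT80 and KRT17. KRT34, a type I hair keratin, was at 1.61, 1.02 and 1.22 FPKM with ALB and 11.8, 13.6 and 10.1 FPKM without it. EdgeR put its log2 fold change at -3.20 (standard error 0.24). KRT86 had one of -3.28 (standard error 0.29), with 17, 28 and 25 counts in the ALB libraries and 219, 216 and 213 in the TGF-β1 libraries. KRT86 over KRT81 was 0.0581, 0.119 and 0.0952 with ALB and 0.0380, 0.0411 and 0.0439 without it, so these near-copies were not in a fixed ratio. The part of shared reads in the KRT86 values was not tested. For KRT80, a type II epithelial keratin, the fold change was -2.55 on the log2 scale (standard error 0.33), and for KRT17, a type I keratin of stratified epithelia and hair follicles, it was -2.004 (standard error 0.32).

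By kind, the table held 2 of 6 type II and 1 of 11 type I hair keratins, 3 of 20 type II and 2 of 17 type I epithelial keratins, and 1 of 66 keratin-associated proteins. KRT19 and KRT20, the remaining simple epithelial keratins of the list of 5, were not among the 937 genes. A gene outside the table was not called by the authors, and the table does not show why. Every annotated protein-coding gene that lies wholly between KRT80 and KRT18 on chromosome 12, 27 in all, is a keratin gene, and 6 of them were in the table. Between KRTAP2-3 and KRT17 on chromosome 17, 3 of 41 were. The nearest genes of the table were KRT86 and KRT7 for KRT81, KRT86 and KRT81 for KRT7, KRT8 and KRT86 for KRT18, KRT18 and KRT86 for KRT8, and KRT34 and KRT17 for KRTAP2-3, at 318 and 559 kb. Neighbours differed in size of change, with KRT7 at -0.97 and KRT81 at -4.36, 33.7 kb apart.

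**Figure D4:**
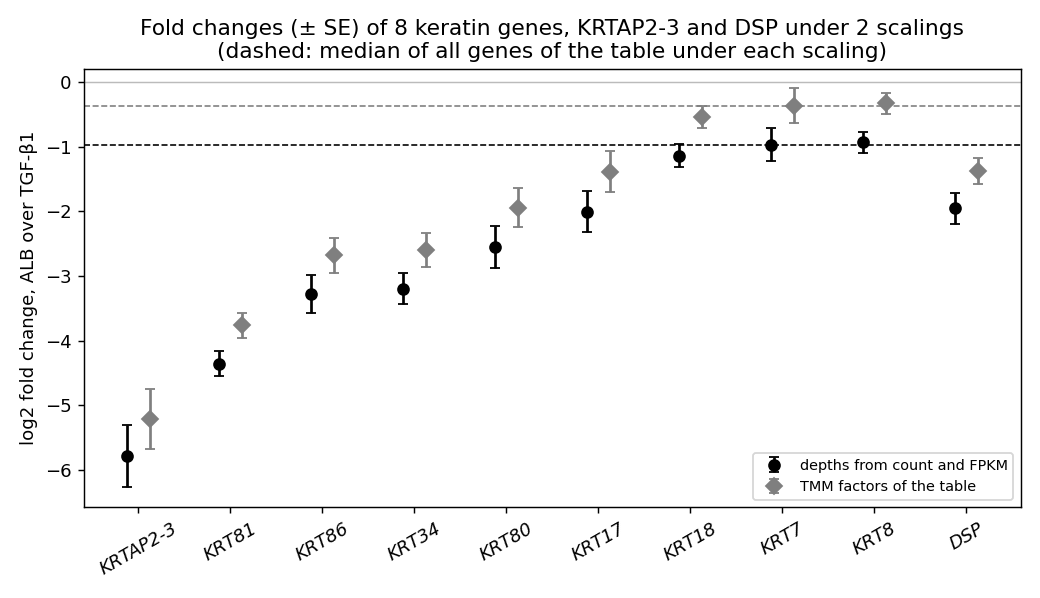
Log2 fold change, ALB over TGF-β1, with its standard error, for KRTAP2-3, 8 keratins and DSP at depths estimated from count and FPKM (black circles) and with TMM factors of the table's genes (grey diamonds). Dashed lines are the median of all 937 genes, lower and higher together, under each scaling, -0.97 and -0.37. KRT7 and KRT8 lie close to those medians, which mark no unchanged level, and the hair genes lie far below them under both.

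Some listed partners of keratin filaments were in the table, and the share of all expressed genes that entered it is not given in the sources used here. None of 16 other intermediate filament genes was in the table, vimentin and desmin included. Of 25 desmosome and keratin linker genes 4 were, and 3 passed as lower and 1 as higher, in a table where 99.4% of the genes passed and 56.9% passed as lower. DSP, desmoplakin, which ties keratin filaments to desmosomes, was at 4.43, 7.52 and 4.23 FPKM with ALB and 22.2, 20.5 and 26.0 FPKM without it. Its log2 fold change was -1.95 (standard error 0.25). DST, a linker of the plakin family, had one of -0.91 (standard error 0.32) from counts, but its mean FPKM gave a log2 ratio of -1.57. The length implied by count and FPKM for DST ran from 13.7 to 20.6 kb in the ALB libraries and from 8.03 to 14.8 kb in the TGF-β1 libraries. COL17A1, a hemidesmosome collagen, and EPPK1, epiplakin, which binds keratins, were under 1 FPKM in every library, and EPPK1 was the one that passed as higher, with 45, 108 and 140 counts in the ALB libraries against 16, 7 and 12 in the TGF-β1 libraries.

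Markers of epithelial identity in the table went both ways. Of 28 listed, SOX9, a transcription factor of bile duct cells, changed by -1.48 on the log2 scale (standard error 0.22), GRHL1, an epithelial transcription factor, by 1.37 (standard error 0.26), and the other 26 were not in the table. A second list, of 17 epithelial markers, had KRT7, KRT8, KRT18 and SOX9 in the table. All 4 had lower counts after ALB, as had 537 of the 937 genes, and only SOX9 is not a member. Of 20 hair shaft and follicle genes only LIPH, a lipase, was in the table. It had 0.429 ± 0.033 FPKM with ALB and 0.160 ± 0.041 FPKM without it (SD, n = 3 each). HOXC13 and LEF1, known to raise hair keratin genes, were not among the 937 genes. The samples carry the label of hepatocytes as well as that of the stellate line. Of the markers fixed for each, 0 of 10 hepatocyte markers and 4 of 14 stellate markers were in this table of called genes, which cannot show what the cells expressed unchanged. COL3A1, TAGLN and COL1A2 were lower and PDGFRA higher with ALB. The part of these markers in the keratin values was not tested.

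Over the 6 libraries, the genes most like each member were named by Pearson's r on log2(FPKM + 1), among 548 other genes with a symbol and a mean of at least 1 FPKM. For KRT81 they were MYEOV, MYO7B and MYOCD (r = 0.998, 0.998 and 0.997), and for KRTAP2-3 HLX, DOCK4 and RGMB (0.998, 0.997 and 0.996). For KRT8 they were ANKRD1, ANXA3 and RBMS3 (0.998, 0.997 and 0.997), for KRT18 PLK2, ANKRD1 and LRRC17 (all 0.996), and for KRT7 ABI3, LTBP2 and RGS20 (0.995, 0.994 and 0.992). All genes of the table differ between the 2 groups by selection, and 256 of the 548 genes had r over 0.9 with KRT81. Among the members, KRT8 and KRT18 were the most alike (r = 0.995), KRT81 and KRTAP2-3 came next (0.990), and KRT7 and KRT18 were the least alike (0.863).

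A promoter window was at hand in RefSeq (GRCh38.p14) for 2 of the 5 members, KRTAP2-3 and KRT8. That of KRTAP2-3, the gene with the lowest fold change, and that of KRT34, the nearest gene of the table, are shown over the 250 bases before the start. Capitals mark the letters TATAAA, the core of a known promoter element that lies close before many start sites, searched after the sequences had been seen.
KRTAP2-3, chr17:41060115-41060364, minus strand: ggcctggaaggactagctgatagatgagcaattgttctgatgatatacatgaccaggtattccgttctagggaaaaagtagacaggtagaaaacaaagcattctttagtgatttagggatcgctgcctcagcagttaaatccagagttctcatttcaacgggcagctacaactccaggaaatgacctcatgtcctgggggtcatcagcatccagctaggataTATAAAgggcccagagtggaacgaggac
KRT34, chr17:41382307-41382556, minus strand: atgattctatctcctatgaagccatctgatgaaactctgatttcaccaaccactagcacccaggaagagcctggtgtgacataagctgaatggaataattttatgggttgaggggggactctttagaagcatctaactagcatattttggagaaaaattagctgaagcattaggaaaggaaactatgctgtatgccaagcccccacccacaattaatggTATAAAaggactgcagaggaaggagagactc
These letters begin 28 bases before the start of KRTAP2-3 and 31 before that of KRT34, and 10.7% of all 35116 promoter windows of this length hold them on either strand. Neither window holds TGACTCA (AP-1, in 4.20% of all windows), GGAATG (TEAD, 11.9%), CAGAC (SMAD, 38.0%), GGGCGG (SP1, 42.6%) or CTTTGA (LEF1, 11.2%) on either strand, and nothing about these factors follows from that. The window of KRT8 holds CAGAC once, 137 bases before its RefSeq start. That window, chr12:52926470-52926719, lies inside the GENCODE span of KRT8, which ends at 52949954 and holds 17 transcripts. The window of KRT34 lies partly inside its GENCODE span, which ends at 41382403. For these 2 genes the RefSeq start is thus not the outermost GENCODE start.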

How the data were processed

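Poly(A) RNA of 6 LX-2 libraries was read on an Illumina NovaSeq X Plus. The authors deposited whole-number counts and FPKM values for the 937 genes they had called with DESeq2 (fold change over 2, P under 0.01). CASAVA 1.4 and 2 mouse builds (mm9, mm10) appear in the submitters' notes, although the genes carry human symbols. Which aligner, counter and human build were used is not given in the sources used here. Columns of the ALB group were matched to samples by title. Those of the TGF-β1 group begin with T while the samples are titled as controls, so within that group the number is the one link, which no mean or fold change uses.

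The table holds a selection, so its sums give no depth. Dividing count by FPKM in 565 genes, with 41 single-transcript genes of GENCODE 29 setting the scale, gave the library depths. EdgeR 4.0.16 (quasi-likelihood test, R 4.3.3) was run on the counts at these depths, with Benjamini-Hochberg adjustment over all genes. It was tested on simulated data. A standard error is the size of the log2 fold change divided by √F. Alternatives used TMM factors, DESeq2 1.42.0, limma 3.58.1 on log2(FPKM + 1) and log2(FPKM + 0.1), a minimum mean of 1 FPKM, a block for the column number, fits without each library in turn, and depths centred on the gap in fold change around 0, the last chosen after seeing the data.

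The members and gene lists were chosen with earlier results of these data known. Named genes are the members, up to 4 per list (the largest fold changes with a mean of at least 1 FPKM), the 3 most correlated genes and the 2 nearest genes for each member. COL17A1, EPPK1, LIPH, COL1A2 and PDGFRA, under that mean, and listed genes outside the table were named after their values were seen. Transcript sequences are from GENCODE 29, promoter windows from RefSeq. Some sequence stretches are not reported here.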

Additional observations from a re-analysis of the deposited data

How the results depend on the processing

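Scaling decided the calls of KRT7 and KRT8. With TMM factors of the table's genes, which take most genes as unchanged although all had been called, the median log2 fold change was -0.37 in place of -0.97, KRT7 was at -0.36 and KRT8 at -0.33, and neither passed. With DESeq2's own size factors, which make the same assumption about a table of called genes, KRT7 and KRT8 were at -0.26 and -0.23 and did not pass. Over the alternatives without a left-out library, KRT7 ranged up to -1.17 (limma on log2(FPKM + 0.1)). KRT81, KRTAP2-3 and KRT18 stayed lower and past the threshold under every alternative run, at -3.76, -5.22 and -0.54 with TMM factors. Limma on log2(FPKM + 1) put KRTAP2-3 at -3.70, above KRT81 at -4.00, and with 0.1 in place of 1 they were at -5.60 and -4.33. KRT86 was at -1.53 with 1 and at -2.89 with 0.1. The TMM factors called 731 genes, 331 lower and 400 higher, in place of 533 and 398, and DESeq2's own size factors called 678, 278 lower and 400 higher. With a minimum mean of 1 FPKM 618 genes were tested and 614 were called.

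With depths centred on the gap in fold change, a shift of 0.11 on the log2 scale, KRT8 was at -1.04 and KRT7 at -1.08. With each library left out, edgeR called 903 to 915 genes, and log2 fold changes were -4.48 to -4.27 for KRT81, -6.67 to -5.46 for KRTAP2-3, -1.12 to -0.74 for KRT7, -1.02 to -0.85 for KRT8 and -1.27 to -1.02 for KRT18, all past the threshold. The difference in the log2 ratio of KRTAP2-3 over KRT81 ranged from -2.57, without ALB replicate 2, to -1.28.

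With the column number as a replicate block 925 genes passed and no member's call changed. Deviations of same-numbered libraries had correlations of 0.089, -0.018 and -0.11, so the numbers were not taken to pair the libraries. At 4 to 17 counts with ALB, the level of KRTAP2-3 is limited by depth.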
